A study of Mus musculus with 6 samples.

Results

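The 10 genes described here carry out or report glucocorticoid action: the receptors Nr3c1 and Nr3c2, the activating enzyme Hsd11b1, the receptor partner Fkbp5, and the target genes Tsc22d3, Sgk1, Zbtb16, Klf9, Errfi1 and Cdkn1a. They were chosen by name, as every non-control probe whose gene name on the array was one of the 10, which gave 13 of 55681 probes and 10 of 34844 gene names. All 13 probes and all 10 genes passed the filter on dim probes, as did 38460 probes and 26180 gene names in all. The tissue was inguinal fat, which lies beneath the skin of the groin, taken from male C57BL/6J mice, and each of the 6 samples had its own 1-colour Agilent array.

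Both groups ended the experiment on a fatty diet, 60% of its calories being fat, eaten freely. In the 3 samples titled DIO_CR_WR the mice, aged 2 months at the start, had first eaten that diet for 1 month. They were then calorie restricted for about 3 weeks, down to the weight of chow-fed mice of the same age, and regained weight when the fatty diet returned. The mice of the 3 samples titled DIO had eaten chow until that last period, per the protocol. The protocol calls the regaining mice DIO and the others CTR, so the name DIO stands for different mice in the titles and in the protocol, and the groups below follow the titles. Labelled ages were 6, 7 and 8 months for DIO replicates 1 to 3 and 9, 10 and 11 months for DIO_CR_WR replicates 1 to 3, so the ages do not overlap between groups. Consecutive samples differ by exactly 1 month, so whether these are true ages is in doubt, and values with age as a covariate may only track sample order. No genotype other than the strain is labelled. The labels do not say whether each sample was 1 mouse, and the p-values measure only the spread between these samples.

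Corticosterone, the main glucocorticoid of mice, enters cells and binds a receptor held ready by heat shock chaperones, after which the receptor moves to the nucleus and switches genes on or off. In fat, the enzyme made from Hsd11b1 turns inactive 11-dehydrocorticosterone back into corticosterone inside the cell, so local hormone can differ from blood hormone. Glucocorticoids act in fat on adipocyte differentiation, on fat breakdown and on inflammation, and the target genes below are widely used as readouts of the receptor.

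Levels are given as log2 intensity minus the array's 75th percentile, so that 0 is the brightness below which 75% of the probes on that array lie, and a difference of 1 is a doubling. That percentile was 4605 to 4991 intensity units in DIO and 6050 to 7126 in DIO_CR_WR, and 69.1% to 79.7% and 52.9% to 66.7% of probes, in that order, were well above background. Slide 1 held the 3 DIO_CR_WR arrays and DIO replicate 1, while slide 2 held the remaining DIO arrays. Any difference given below with the slide as a block therefore compares DIO replicate 1 alone with the 3 DIO_CR_WR arrays. Adipocyte markers were bright on every array: Adipoq lay between 4.17 and 5.26, and all 9 adipocyte markers were measured. Under this scaling the median kept probe was lower in DIO_CR_WR by a log2 value of -0.19, or -0.050 with no filter on dim probes. That shift was -0.075 with quantile normalization and 0.31 with scaling to spike-in RNA. Signs of small differences therefore hold only relative to a scaling: each gene list below with a median under 0 had a median above 0 with spike-in scaling.

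None of the 10 genes passed limma's moderated test at an adjusted p under 0.05 (0 of 10). No probe on the array did either (0 of 38460, background 0%), and the smallest adjusted p was 0.119. Without DIO replicate 1, when each slide held a single group, 5370 probes passed, among them 2 of the 10 genes (Nr3c1 and Nr3c2) and, of the related genes named below, Pik3r1, Hsp90ab1, Phlda3, Btc, Per3, Hlf and Egr2. At an unadjusted p under 0.05, 1 gene (Sgk1) had the higher level in DIO_CR_WR and 3 (Nr3c2, Nr3c1 and Tsc22d3) had the lower. That balance turned with the scaling: quantile normalization, alone or after normexp background correction, gave 2 higher (Sgk1 and Hsd11b1) and 1 lower (Nr3c2), centring on the median gave 1 higher and 2 lower, and spike-in scaling gave 2 higher (Sgk1 and Hsd11b1) and 0 lower. Over all genes, each by its brightest probe, 5.31% were higher and 21% lower at that level, so 4 of 10 stood beside 26.3%. Of all probes' unadjusted calls 20.5% were higher here, 33.7% with quantile normalization and 87.6% with spike-in scaling. With no filter on dim probes 55.0% were higher, so the shares over all genes depend on the filter as well as on the scaling. The groups did not overlap for 2 genes on the higher side (Sgk1 and Hsd11b1) and 4 on the lower (Nr3c1, Nr3c2, Tsc22d3 and Klf9), beside 7.25% and 26.5% of all genes, or 6 of 10 beside 33.8%. All of the 10 genes but Nr3c2 were bright. Of the 10593 probes at least as bright as the dimmest of these, 472 were higher and 3520 lower without overlap. The median log2 difference of the 10 was -0.12 and that of all genes -0.20, with 5 of the 10 above the latter. In whole-tissue RNA, fewer cells of a type and less RNA per cell cannot be told apart.

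**Figure D1:**
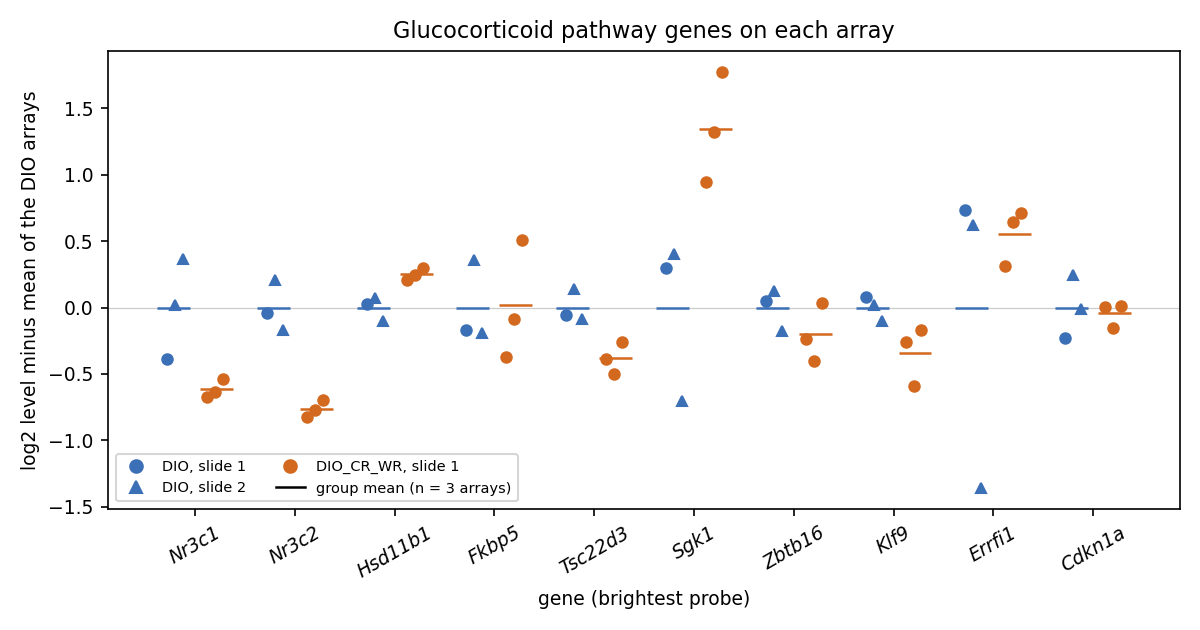
Level of each gene on each array, as log2 intensity after scaling minus the mean of the 3 DIO arrays (y axis), by gene (x axis, brightest probe). Points are arrays, shapes give the slide and bars the group means (n = 3). Sgk1 and Hsd11b1 lie above all DIO arrays on every DIO_CR_WR array, the brightest probes of both receptors lie below, and DIO replicate 3 is far below the other arrays for Errfi1.

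Of the receptors, Nr3c1 encodes the glucocorticoid receptor itself. Its brighter probe (NM_008173, mm9 chr18:39571641-39571700, minus strand) read 2.70, 3.11 and 3.45 on DIO replicates 1 to 3 and 2.41, 2.45 and 2.55 on DIO_CR_WR replicates 1 to 3. The groups did not overlap, and the DIO array on the shared slide lay nearest to the DIO_CR_WR arrays. The difference was -0.61 ± 0.22 (SE) on the log2 scale, a 1.53-fold lower level, with a 95% confidence interval from -1.14 to -0.083 and an adjusted p of 0.159 by limma. With the slide as a block it was -0.23, and with labelled age as a covariate -1.27, or 2.42-fold lower. The second Nr3c1 probe, at chr18:39574183-39574242, was dim and went the other way. It read -2.16, -2.68 and -2.52 in DIO and -2.23, -2.06 and -2.32 in DIO_CR_WR, overlapping ranges that differed by 0.25 ± 0.19 (adjusted p 0.432). With the slide blocked that became -0.044. The mean over both probes differed by -0.18, so the arrays give no single direction for this gene.

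Nr3c2 encodes the mineralocorticoid receptor, which binds corticosterone tightly as well as aldosterone. Its probe (NM_001083906, chr8:79766370-79766429, plus strand) was the dimmest of the brightest probes of the 10 genes, and was well above background on 3 of 3 DIO and 2 of 3 DIO_CR_WR arrays. It read -3.34, -3.08 and -3.46 in DIO and -4.12, -4.06 and -3.99 in DIO_CR_WR, so every DIO_CR_WR array lay below every DIO array. The difference was -0.76 ± 0.17 (1.70-fold lower, 95% interval -1.16 to -0.36). Its adjusted p by limma, 0.125, was the smallest among the 10 genes, and its unadjusted p was 0.00301. It was lower under every alternative that gave a value, between -0.85 and -0.26. With the slide blocked, against DIO replicate 1 alone, it was -0.72. Without DIO replicate 1, when each slide held a single group, 5370 probes passed. Both receptors were among them, with adjusted p-values of 0.0427 (the brighter Nr3c1 probe) and 0.0468 (Nr3c2) by limma.

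**Figure D2:**
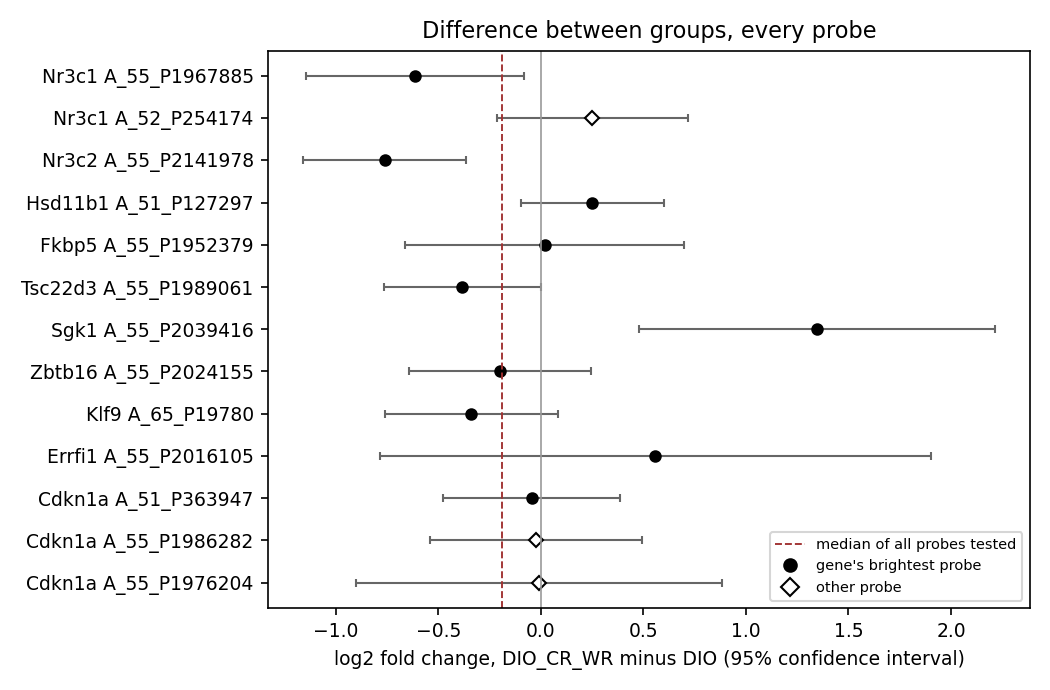
Log2 difference between the groups, DIO_CR_WR minus DIO (x axis), for each of the 13 probes (y axis), with 95% confidence intervals from limma over 3 arrays a group and the median of all probes as a dashed line. The Nr3c1 probes lie on opposite sides of 0, the 3 Cdkn1a probes lie within 0.05 of 0, and the interval of Sgk1 runs from 0.48 to 2.22.

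Chaperones that hold the receptor ready and cofactors that act with it on DNA made up a list of 21 genes, all measured. At an unadjusted p under 0.05, 0 were higher and 5 lower, with a median of -0.28 (0.22 with spike-in scaling), and the groups did not overlap for 10 lower and 1 higher. Over all genes 21% were lower at that p and 26.5% lower without overlap. Among the brighter probes described above, 3520 of 10593 were lower without overlap. None passed the adjusted test. Hsp90ab1, a heat shock protein 90 that folds the receptor, read 4.34, 4.58 and 4.65 in DIO and 3.66, 3.47 and 3.64 in DIO_CR_WR, a difference of -0.93 ± 0.16 (adjusted p 0.119). Every DIO_CR_WR array lay below the lowest DIO array. Fkbp4, the immunophilin that takes the place of FKBP5 on the activated receptor, overlapped between groups at -0.28 ± 0.24 (adjusted p 0.483), and lay at 0.22 with scaling to spike-in RNA.

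Hsd11b1 (NM_008288, mm9 chr1:195048169-195048228, minus strand) encodes 11beta-hydroxysteroid dehydrogenase type 1. It was spotted 10 times on each array, and the repeat spots had standard deviations of 0.027 to 0.12 within an array. The level was 2.34, 2.39 and 2.21 on the DIO arrays and 2.52, 2.56 and 2.61 on the DIO_CR_WR arrays, with no overlap. The difference, 0.25 ± 0.15 (1.19-fold, interval -0.099 to 0.60), did not pass (unadjusted p 0.132, adjusted p 0.307, limma). Its unadjusted p by limma was 0.0179 with normexp and quantile normalization, 0.0124 with quantile normalization alone and 0.0132 with spike-in scaling. It was positive under every alternative, from 0.20 to 0.75, and 0.22 with the slide as a block. The groups of arrays were tight here: the standard deviation was 0.092 in DIO and 0.047 in DIO_CR_WR.

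H6pd supplies the NADPH that lets this enzyme work in the activating direction. Its level overlapped between groups, at 2.44, 2.78 and 2.54 in DIO and 2.58, 2.45 and 3.13 in DIO_CR_WR (difference 0.13 ± 0.23, adjusted p 0.739). Hsd11b2, which inactivates corticosterone, was dim, well above background on 3 DIO arrays and 1 DIO_CR_WR array, and differed by -0.76 ± 0.51 with overlap (adjusted p 0.372), or by 0.35 with the slide blocked. Serpina6, the corticosteroid binding globulin, read -1.04, -1.32 and -1.90 in DIO and -2.49, -3.11 and -1.97 in DIO_CR_WR. The lowest DIO array and the highest DIO_CR_WR array were nearly level, and the difference was -1.10 ± 0.35 (adjusted p 0.143). Of 17 genes for steroid supply and breakdown 14 were measured. At an unadjusted p under 0.05, 1 had the higher level and 2 the lower, beside 5.31% and 21% of all genes. With 0 past the adjusted test, the list had a median of -0.29 (0.21 with spike-in scaling). Among those called lower was Hsd3b1, a steroid-making enzyme, which was well above background on 3 DIO arrays and on 0 DIO_CR_WR arrays. Its DIO mean was -5.79. The lowest signal called well above background averaged -5.31 over the DIO_CR_WR arrays, so a lower Hsd3b1 level there was not shown.

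Fkbp5 encodes the chaperone partner that lowers the receptor's affinity for hormone and is itself induced by the receptor. Its probe (NM_010220, chr17:28536060-28536119, minus strand) read 2.92, 3.44 and 2.89 in DIO and 2.71, 3.00 and 3.59 in DIO_CR_WR. The highest and the lowest of the 6 values were both in DIO_CR_WR. The difference was 0.019 ± 0.28 with an interval from -0.66 to 0.70 (adjusted p 0.972), which allows a change of either sign. Leaving out 1 array at a time moved it between -0.23 and 0.21. Among 39 named genes, those whose levels over the 6 arrays followed Fkbp5 most closely were H6pd (Pearson r 0.86), Zbtb16 (0.61) and Cdkn1a (0.52). These are descriptions over 6 arrays that share scaling and slides.

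Sgk1 encodes a kinase that regulates ion channels and transporters and is induced by both steroid receptors as well as by serum. Of its 6 promoter windows in the RefSeq table (GRCm38.p6, 250 bases before to 50 after a start site), 1 holds a full palindromic glucocorticoid response element, searched as AGAACA, any 3 bases and TGTTCT, which reads the same on both strands. Only 3 of 32851 windows in the table hold it (0.00913%). The 250 bases before that start site are shown because Sgk1 had the largest difference among the 10 genes. They lie at chr10:21993640-21993889 on the plus strand, and capitals mark the element, 189 to 175 bases before the start, and matches to its AGAACA arm on either strand.
Sgk1: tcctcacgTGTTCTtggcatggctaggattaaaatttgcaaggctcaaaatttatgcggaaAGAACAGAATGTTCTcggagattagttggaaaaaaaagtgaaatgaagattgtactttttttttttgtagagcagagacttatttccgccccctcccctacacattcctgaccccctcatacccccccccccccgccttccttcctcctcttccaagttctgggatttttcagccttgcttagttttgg
The arm alone, searched as AGAACA on both strands and found inside the full element too, was in 6233 windows (19%) and in 4 of the 17 windows of the 8 genes that matched the table. The only other gene of the 8 with the arm was Tsc22d3, with 1 match 185 bases before a start site. It is shown for comparison with the paired arms of Sgk1, for the bases chrX:140600523-140600772 on the minus strand.
Tsc22d3: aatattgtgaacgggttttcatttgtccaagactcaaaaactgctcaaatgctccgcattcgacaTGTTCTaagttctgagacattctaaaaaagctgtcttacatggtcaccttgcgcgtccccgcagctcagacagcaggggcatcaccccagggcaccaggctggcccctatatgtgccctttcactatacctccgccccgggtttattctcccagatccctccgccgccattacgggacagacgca
A match is a description of the letters, and which start sites were used in this tissue was not measured.

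The Sgk1 probe (NM_001161845, mm9 chr10:21719507-21719566, plus strand) read 1.05, 1.15 and 0.052 in DIO and 1.69, 2.07 and 2.53 in DIO_CR_WR. All DIO_CR_WR arrays were above all DIO arrays, and DIO replicate 3 was the lowest by more than the spread of the other DIO arrays. The difference was 1.35 ± 0.36, a 2.54-fold higher level with a 95% interval of 1.39 to 4.64, and it was larger than 98.6% of all probes' differences. It did not pass after adjustment (unadjusted p 0.00849, adjusted p 0.133, limma). It stayed higher under every alternative, between 1.00 and 1.85. It was 1.05 with the slide as a block, against DIO replicate 1 alone, and 1.00 without DIO replicate 3. The 6 arrays stood in the same order for Sgk1 and for Hsd11b1, from DIO replicate 3 at the bottom to DIO_CR_WR replicate 3 at the top.

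The kinase's own pathway and that of the mineralocorticoid receptor were covered by 8 measured genes of 9, with 0 on either side at an unadjusted p under 0.05 (median -0.097, or 0.051 with quantile normalization). Shares over all genes at that level were 5.31% higher and 21% lower. Pdpk1, which phosphorylates SGK1, differed by -0.45 ± 0.19 (adjusted p 0.20) and Sgk3, a related kinase, by -0.34 ± 0.15 (adjusted p 0.212). Both had no overlap between groups, and both lay above 0 with scaling to spike-in RNA.

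Tsc22d3, also called GILZ, encodes a leucine zipper protein through which glucocorticoids restrain inflammation. Its probe (NM_001077364, mm9 chrX:137074094-137074153, minus strand) read 3.09, 3.28 and 3.05 in DIO and 2.75, 2.64 and 2.88 in DIO_CR_WR, with no overlap. The difference was -0.38 ± 0.16 (1.30-fold lower, interval -0.76 to -0.0016, adjusted p 0.191 by limma). It was 0.12 with scaling to spike-in RNA and -0.096 with quantile normalization, and it lay below the median of all probes under each of these. Klf9, a zinc finger transcription factor that rises quickly on glucocorticoid treatment, read 2.59, 2.53 and 2.41 in DIO and 2.25, 1.92 and 2.34 in DIO_CR_WR (mm9 chr19:23240410-23240469). The groups were separate by a narrow gap. Its difference of -0.34 ± 0.18 (adjusted p 0.260) was 0.16 with scaling to spike-in RNA.

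Zbtb16, a transcription factor known as PLZF, is strongly induced by glucocorticoids in many cells. Its probe (chr9:48462419-48462478) read 2.19, 2.26 and 1.96 in DIO and 1.90, 1.74 and 2.17 in DIO_CR_WR. The ranges overlapped through DIO_CR_WR replicate 3, and the difference was -0.20 ± 0.18 (interval -0.64 to 0.24, adjusted p 0.512), or 0.30 with scaling to spike-in RNA. Relative to the median of all probes it was -0.010.

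Errfi1 encodes an inhibitor of the EGF receptor. It read 1.11, 1.00 and -0.98 in DIO and 0.69, 1.02 and 1.09 in DIO_CR_WR (chr4:150242886-150242945). A single array, DIO replicate 3, set the group difference of 0.56 ± 0.56 (adjusted p 0.548): the other 5 arrays lay between 0.69 and 1.11. The difference was -0.12 without that array and -0.18 with the slide blocked. For the EGF receptor, its relatives and ligands, 8 of 10 genes were measured. At an unadjusted p under 0.05, 2 were higher and 0 lower, beside 5.31% and 21% of all genes. The list median was -0.12, or 0.38 with spike-in scaling, and neither higher gene passed the adjusted test. Both were ligands. Btc, betacellulin, read -1.30, -1.62 and -1.39 in DIO and -0.59, -0.35 and -0.49 in DIO_CR_WR, a difference of 0.96 ± 0.17 (adjusted p 0.119). Areg, amphiregulin, was dim: well above background on 2 DIO and 3 DIO_CR_WR arrays, it read -8.73, -6.29 and -6.95 in DIO and -3.65, -5.34 and -5.42 in DIO_CR_WR. Its difference of 2.52 ± 0.74 (adjusted p 0.138) includes a DIO array not well above background, and it was 1.82 without DIO replicate 1 and 3.93 with the slide blocked.

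Cdkn1a encodes the cell cycle inhibitor p21, a target of p53 as well as of the glucocorticoid receptor. Its brightest probe, spotted 10 times (chr17:29237377-29237436), read 1.33, 1.80 and 1.55 in DIO and 1.56, 1.41 and 1.57 in DIO_CR_WR. All DIO_CR_WR values lay inside the DIO range. The difference was -0.044 ± 0.18 (interval -0.48 to 0.39, adjusted p 0.894), and its other probes gave -0.023 and -0.010. The sign turned under other scalings. The p53 pathway list had 14 genes, of which 0 had the higher level and 2 the lower at an unadjusted p under 0.05. That stood beside 5.31% and 21% of all genes. The list median was 0.077 beside -0.20 for all genes, with 11 of the 14 above the latter. The 2 called lower were Phlda3, an inhibitor of AKT signalling, at -0.61 ± 0.16 (adjusted p 0.131), and Ccng1, cyclin G1, at -0.50 ± 0.21 (adjusted p 0.191). With scaling to spike-in RNA Phlda3 lay at -0.11 and Ccng1 at 0.00028.

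**Figure D3:**
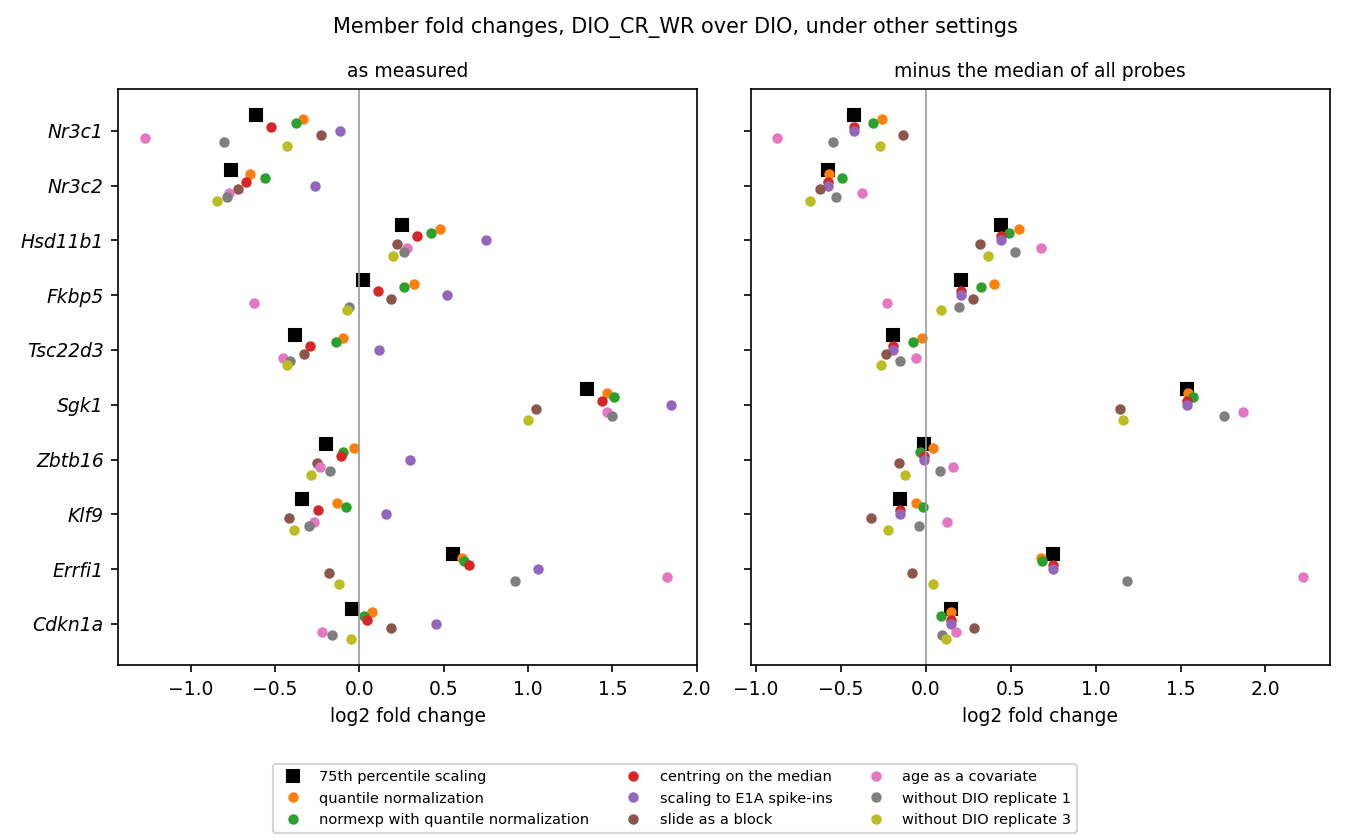
Log2 difference between the groups for each of the 10 genes (y axis) under 9 settings (colours), as measured in the left panel and after subtracting the median of all probes in the right panel (x axes). Nr3c2 stays below 0 and Sgk1 and Hsd11b1 stay above 0 in both panels, while Errfi1 moves from 1.83 with age as a covariate to -0.18 with the slide as a block.

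Other known glucocorticoid targets were taken as a list of 26, all measured. At an unadjusted p under 0.05, 1 was higher and 5 were lower, beside 5.31% and 21% of all genes, with 0 of the list past the adjusted test. Their median was -0.22 beside -0.20 for all genes, and it was 0.054 with quantile normalization and 0.28 with spike-in scaling. Pik3r1, a regulatory subunit of PI3 kinase, read -0.39, -0.73 and -1.60 in DIO and 0.19, 0.49 and 0.15 in DIO_CR_WR, a difference of 1.18 ± 0.33 (adjusted p 0.135). As for Sgk1, DIO replicate 3 was the lowest array. Bcl6, a transcriptional repressor, differed by -0.60 ± 0.19 (adjusted p 0.141), or by -0.11 with scaling to spike-in RNA. Fam107a differed by -0.43 ± 0.14 (adjusted p 0.145), or by 0.072 with scaling to spike-in RNA. Per1 and Dusp1, which answer the hormone quickly, overlapped between groups at -0.30 ± 0.40 (adjusted p 0.659) and 0.14 ± 0.31 (adjusted p 0.80).

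Clock genes and immediate early genes were listed beside them, and no label gives the time of day of collection. The clock list had 13 measured genes of 14, with 0 on the higher and 5 on the lower side at an unadjusted p under 0.05 (median -0.28, or 0.22 with spike-in scaling), beside 21% of all genes on the lower side. Per3, a clock repressor, was well above background on 3 DIO arrays and on 0 DIO_CR_WR arrays. It thus passed the filter through the DIO arrays alone. Its DIO mean was -4.80, and the lowest signal called well above background averaged -5.31 over the DIO_CR_WR arrays. That lowest signal is not a limit for every probe, so the size of the difference is uncertain. The measured Per3 difference was -1.71 (adjusted p 0.119 by limma), -1.21 with spike-in scaling and -0.82 with normexp and quantile normalization. Hlf, a clock output factor, differed by -1.11 ± 0.21 (adjusted p 0.122). Of 11 measured immediate early genes of 12, 3 were higher and 3 lower (median 0.22), beside 5.31% and 21% of all genes. Egr2 differed by 1.51 ± 0.33 (adjusted p 0.125). Egr3, counted among the lower genes, was also well above background on 3 DIO arrays and on 0 DIO_CR_WR arrays. Its DIO mean was -5.02, close to the -5.31 given above, so the size of its difference is uncertain too. The measured Egr3 difference was -1.66 (adjusted p 0.124 by limma), -1.16 with spike-in scaling and -0.54 with normexp and quantile normalization. None of these lists held a gene past the adjusted test, and their part in the differences above was not tested.

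**Figure D4:**
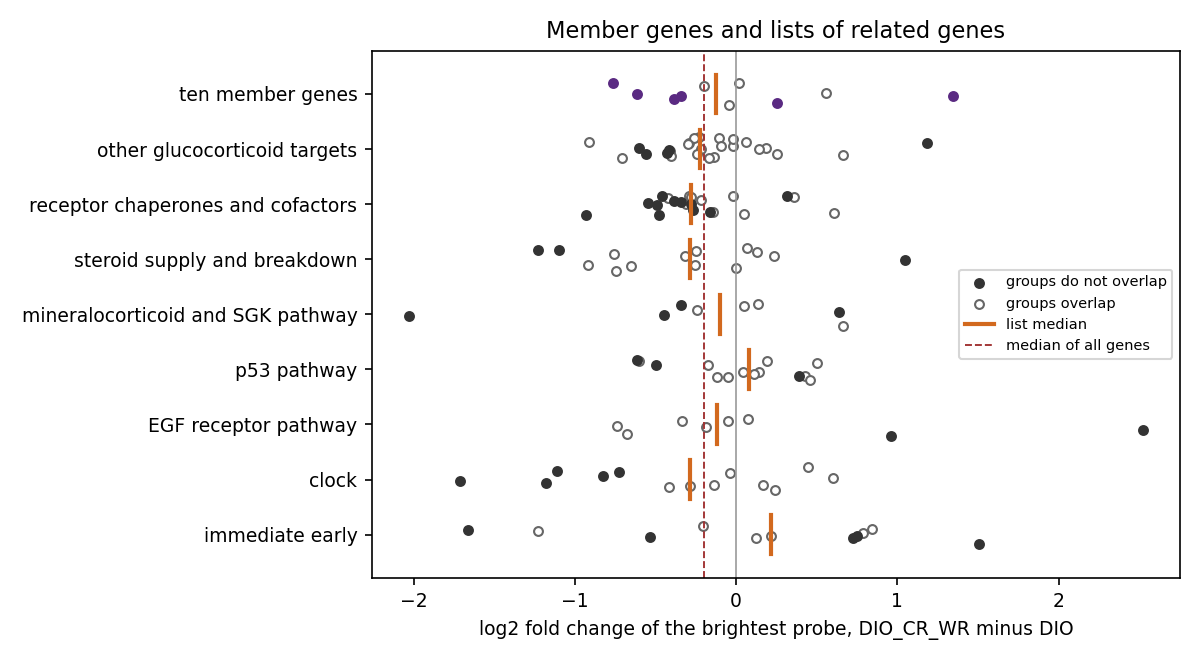
Log2 difference of each gene's brightest probe, DIO_CR_WR minus DIO (x axis), for the 10 genes and the 8 lists of related genes (y axis). Filled points mark genes whose groups do not overlap, orange bars list medians and the dashed line the median of all genes, -0.20. The list medians lie between -0.29 and 0.22.

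Markers of the cells that fat tissue can hold were read in the same fit. Of 5 measured T cell markers of 6, 4 were higher in DIO_CR_WR at an unadjusted p under 0.05 and 0 lower (median 1.41). Their summed level, in units of the array's 75th percentile, was 0.313 to 0.847 in DIO and 0.818 to 1.62 in DIO_CR_WR, ranges that overlapped. Macrophage markers, 5 measured of 6, had 3 higher and 0 lower (median 0.67), with sums of 16.4 to 31.0 and 22.5 to 25.9 that overlapped. Endothelial markers had 2 of 4 higher and 0 lower, with sums of 7.97 to 9.67 and 9.69 to 10.3. Adipocyte markers had 0 of 9 higher and 3 lower (median -0.34, or 0.16 with spike-in scaling), with sums of 146 to 177 and 124 to 170 that overlapped. Adipoq itself differed by 0.16 ± 0.32 (adjusted p 0.770). Progenitor markers had 2 of 6 higher, B cell markers 1 of 2 measured, skeletal muscle markers 0 of 6 higher and 2 lower, skin and mammary epithelium markers 0 of 4 either way, and lymph node stroma markers 1 higher and 1 lower of 3. These counts stand beside 5.31% of all genes on the higher side and 21% on the lower side. Whether any marker list departs from those shares was not tested. No marker passed the adjusted test. What these cells contribute to the levels of Sgk1, the receptors and the other genes was not tested.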

How the data were processed

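Gene expression was measured in 6 samples of inguinal fat, 3 titled DIO and 3 titled DIO_CR_WR. The deposited values are spot intensities from Agilent Feature Extraction (10.7.1.1 per the submitters' processing notes, 10.7.3.1 per the file headers), with a spatial background surface subtracted and no scaling between arrays. The deposited flags for background, saturation and outliers, coded 0 or 1, were used as given, and no spot (0) was saturated. The series-wide file (18 value columns) was left aside, since its column names do not match the titles.

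The software was limma 3.58.1 in R 4.3.3, plus version 1.17.8 of data.table. Of 62976 spots, 3671 control spots were set aside, outlier-flagged spots were treated as missing, and spots of a probe were averaged on the log2 scale. Each array's log2 intensity was reduced by its 75th percentile. Probes well above background on at least 3 of 6 arrays (38794) and complete were kept (38460). The groups were compared with limma (lmFit and eBayes, two-sided), and p-values were adjusted by Benjamini-Hochberg over every kept probe, with a threshold of 0.05. A gene is represented by its brightest probe. The fit was tested on simulated data with independent noise for each probe and array. Those data held no slide effect and no shift between arrays, so that test says nothing about either. The number of arrays limits the precision.

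The members and lists were chosen with earlier results of these data known. Named were all members, Per1, Dusp1, Hsd11b2, H6pd, Serpina6, Fkbp4 and Adipoq, and up to 3 genes of each list with the smallest unadjusted p. No marker gene other than Adipoq is given singly, and a gene that the rule picked is not reported here, though it stays in all tests and counts. Probe positions are those of the array files (mm9), and promoter windows those of RefSeq (GRCm38.p6); Nr3c1 and Zbtb16 had no match in that set. Alternatives covered background correction, scaling, filter, probes, variance, slide, replicate number, age, threshold and single arrays.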

Additional observations from a re-analysis of the deposited data

How the results depend on the processing

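Under the alternatives, 0 of the 10 genes passed at an adjusted p under 0.05 except without DIO replicate 1, which gave 2 (Nr3c1 and Nr3c2), so leaving out arrays gave 0 to 2. Over all probes, leaving out arrays gave 0 to 5370 calls, the latter without DIO replicate 1 (1351 higher). Scaling to spike-in RNA gave 6, all higher, and requiring signal on all 6 arrays gave 46, of which 29 were higher and none was one of the 10 genes. Nr3c2 has no value under that filter. The other alternatives gave 0. At an unadjusted p under 0.05 there were 4 of the 10 genes (1 higher, 3 lower). The count was 2 with spike-in scaling (Sgk1 and Hsd11b1, both higher), 1 with the slide as a block and 1 on slide 1 alone (Nr3c2, lower), 1 with age as a covariate (Nr3c1, lower), 5 with a trended and robust variance (Klf9 added), and 2 to 3 with arrays left out. The replicate number as a block gave 0 calls and 3 genes at an unadjusted p under 0.05, with Sgk1 at an adjusted p of 0.184 by limma, and changed no adjusted call. Same-numbered arrays did not deviate together (r 0.0042, -0.13 and -0.21, against -0.081 to 0.22 for others), so numbers were not treated as pairs.

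Of the unadjusted calls over all probes, 20.5% were higher as reported, 33.7% with quantile normalization, 33.8% with normexp, 28.3% with centring on the median, 87.6% with spike-in scaling, 44.1% with the slide as a block and 55.0% with no filter.

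Signs turned as follows. With normexp, Cdkn1a was at 0.024, its probe A_55_P1976204 at 0.031 and Sgk3 at 0.0024. With quantile normalization, Cdkn1a was at 0.075 and A_55_P1976204 at 0.25. With centring on the median, Cdkn1a was at 0.048, A_55_P1976204 at 0.081 and its probe A_55_P1986282 at 0.069. With spike-in scaling, Tsc22d3 was at 0.12, Zbtb16 at 0.30, Klf9 at 0.16, Cdkn1a at 0.46, its other probes at 0.49 and 0.48, Per1 at 0.20, Fkbp4 at 0.22, Fam107a at 0.072, Pdpk1 at 0.054, Sgk3 at 0.16 and Ccng1 at 0.00028. With the slide as a block and on slide 1 alone, Errfi1 was at -0.18, Cdkn1a at 0.19, A_55_P1986282 at 0.14, the dim Nr3c1 probe at -0.044, Dusp1 at -0.48 and Hsd11b2 at 0.35. With age as a covariate, Fkbp5 was at -0.62, Per1 at 0.82, H6pd at -0.35, Fkbp4 at 0.29, Adipoq at -0.011 and A_55_P1976204 at 0.57. With single arrays left out, Fkbp5 ran from -0.23 to 0.21, Cdkn1a from -0.16 to 0.077, Per1 from -0.72 to 0.036, Dusp1 from -0.040 to 0.45, Errfi1 from -0.12 to 0.92, Adipoq from -0.029 to 0.52, H6pd from -0.073 to 0.27, A_55_P1976204 from -0.41 to 0.24 and A_55_P1986282 from -0.13 to 0.17. The causes were not tested. Precision is limited by 3 arrays a group and, for Nr3c2, by signal over background.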
